A study of Mus musculus with 5 samples.

Results

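The SLC25 family comprises the mitochondrial carriers and related proteins. Most are proteins of the inner mitochondrial membrane that exchange nucleotides, phosphate, acids, amino acids and cofactors between the cytosol and the matrix. Family members were taken as every row of the deposited gene tables whose name was Slc25a followed by a number only. This gave 45 genes of 19061 gene rows. Of these, 40 had enough reads to be tested for a change between groups.

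Hearts came from C57BL/6 mice at postnatal day 158. Every mouse carried the MHC-CnATg transgene, an activated calcineurin expressed in cardiomyocytes from the alpha myosin heavy chain promoter, which causes severe cardiac hypertrophy. One group was given vehicle (2 libraries). The other was given JIB-04, a compound that blocks Jumonji demethylases, which strip methyl marks from histone lysines, at 50 mg/kg, 3 times each week from an age of 4 weeks (3 libraries). The treated and the control hearts thus both carried the transgene, and no heart without it was compared. The genotype label is calcineurin transgenic for all 5 libraries, though JIB-04 replicate 3 has CbAtg in its title where the other titles have CnAtg. The labels give neither sex nor litter, and do not state that each library was a separate animal. The p-values therefore measure the spread between these libraries, which may be technical.

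In the heart a working muscle cell turns over its ATP continuously, and each ATP made in the matrix leaves through an ADP/ATP carrier while phosphate enters through the phosphate carrier. Other members run the malate-aspartate shuttle, which moves reducing equivalents from the cytosol into the matrix, and the carnitine shuttle, which brings in long chain fatty acids as acylcarnitines. Further members supply coenzyme A, NAD, iron, glutathione and nucleotides to the matrix.

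The libraries held 32152168 to 37002846 reads, recovered as whole numbers from the deposited values. A value of 3 reads lay between 0.0804 and 0.0977 CPM (the deposited unit, reads scaled by the authors' library size). The cardiomyocyte identity of the tissue was plain in every library, with the myosin gene Myh6 at 19599 to 27883 CPM. JIB-04 replicate 1 stood apart from the other treated libraries for the carriers, and values without it are given for the family and for several members.

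A small number of carriers dominated the family. Levels of different genes were compared as CPM per kilobase of annotated exon, since longer transcripts collect more reads. On that scale the summed level of the 45 members was 2475 and 2612 under vehicle and 2730, 2321 and 2340 under JIB-04. The 5 highest members held 81.6% to 83.7% of this sum in each library. The family as a whole took 0.484% to 0.553% of all deposited CPM.

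Slc25a4, the ADP/ATP carrier isoform of heart and skeletal muscle (chromosome 8, 46207341 to 46211009), was the highest member. It stood at 1963 and 2089 CPM under vehicle and at 2214, 1875 and 1855 CPM under JIB-04, so the treated libraries lay on both sides of the controls. Per kilobase it reached 1052 ± 46.3 (SD, n = 2) under vehicle and 1029 ± 105 (SD, n = 3) under JIB-04, or 41.2% to 42.1% of the family's summed level in each library. Slc25a3, which imports phosphate for ATP synthesis and also carries copper (chromosome 10, 91116578 to 91123963), came next at 482 and 483 CPM per kilobase under vehicle and 469 ± 57 (SD, n = 3) under JIB-04. Its lowest library (434) lay far below the lowest of Slc25a4 (964), and the ranges of the 2 genes did not overlap.

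The broadly expressed ADP/ATP carrier Slc25a5 (chromosome X, 36795652 to 36798806) was the third, at 266 ± 10.4 CPM per kilobase under vehicle and 272 ± 8.84 under JIB-04. The oxoglutarate/malate carrier Slc25a11, a component of the malate-aspartate shuttle (chromosome 11, 70644027 to 70647039), was the fourth at 197 ± 13 and 189 ± 14.9. These 4 genes kept clear gaps between neighbours: in each neighbouring pair the lowest library of the higher gene lay above the highest library of the lower gene. Slc25a4 and Slc25a5 encode closely related proteins, and how reads matching both were counted is not given in the sources used here, so their split is uncertain to that extent.

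After a step down, Slc25a39, a glutathione carrier (chromosome 11, 102402976 to 102407517), reached 79.8 CPM per kilobase over all 5 libraries. It was followed by Slc25a34 at 60.8 and the carnitine/acylcarnitine carrier Slc25a20 at 55.9. Slc25a34, on chromosome 4 (141618825 to 141623834), has no transport role assigned here. Its level ranged from 42.7 to 73, which overlapped the range of Slc25a20 (46.1 to 65.2), so the order of these 2 was not resolved. Slc25a23, Slc25a13 and Slc25a12 filled the eighth to the tenth place with 38.1, 36.7 and 28.6, and each overlapped its neighbour. Division by coding length in place of exon length left the first 4 places as they were and put Slc25a34 in the fifth. It also reversed the order of Slc25a13 and Slc25a12, with Slc25a12 in place 9 and Slc25a13 in place 14.

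Expression spanned a wide range. A mean of 100 CPM or more was seen for 9 members, 21 lay between 10 and 100 CPM, 8 between 1 and 10 CPM, and 7 were below 1 CPM. Among the last was Slc25a31, the ADP/ATP carrier of germ cells, at 0.322 and 0.326 CPM under vehicle and 0.48, 0.268 and 0.0284 CPM under JIB-04. The 5 members with too few reads to test were Slc25a43, Slc25a2, Slc25a18, Slc25a41 and Slc25a21. Slc25a41 had no read in 4 libraries and 0.0852 CPM, the value of 3 reads, in JIB-04 replicate 3. Slc25a18, a glutamate carrier, was at 0 to 0.12 CPM, whereas its relative Slc25a22 was at 30 to 47.5 CPM.

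**Figure D1:**
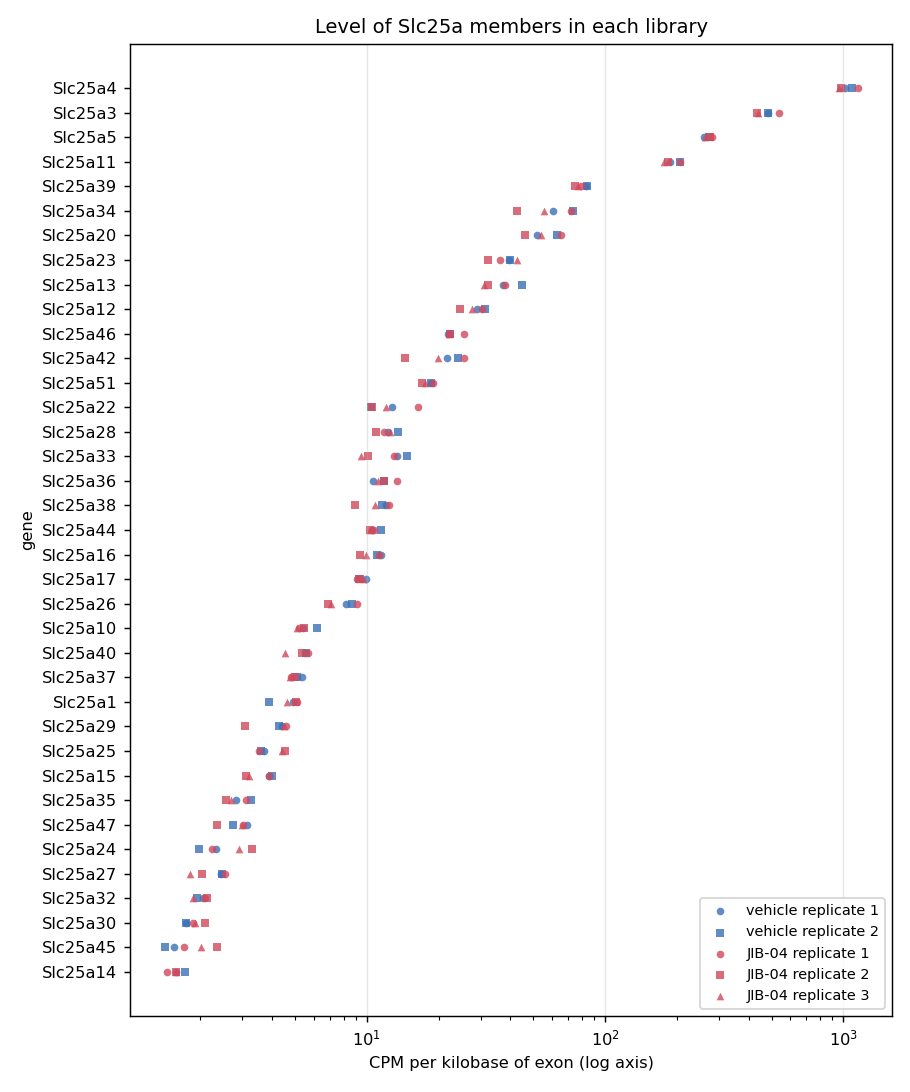
Level of 37 of the 38 Slc25a members with a mean of at least 1 CPM, as CPM per kilobase of exon on a log axis, with 1 point per library (blue, vehicle; red, JIB-04; symbols mark replicates). Slc25a4, Slc25a3, Slc25a5 and Slc25a11 stand apart at the top, and the 2 groups lie close together for most genes.

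The promoters of these dominant carriers are shown as the 250 bases before the RefSeq start (GRCm38.p6), together with those of Slc25a33 and Slc25a45, the members with the smallest p among those with negative and positive values. Each is written 5′ to 3′ on the gene's strand. Capitals mark the letters of 2 common promoter motifs, the CCAAT box (CCAAT or ATTGG) and the Sp1 GC box (GGGCGG or CCGCCC).
Slc25a4: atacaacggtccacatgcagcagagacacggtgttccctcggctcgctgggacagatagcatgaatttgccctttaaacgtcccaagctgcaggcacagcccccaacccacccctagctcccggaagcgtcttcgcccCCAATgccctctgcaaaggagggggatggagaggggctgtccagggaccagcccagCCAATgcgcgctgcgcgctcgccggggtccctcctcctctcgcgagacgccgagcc
Slc25a3: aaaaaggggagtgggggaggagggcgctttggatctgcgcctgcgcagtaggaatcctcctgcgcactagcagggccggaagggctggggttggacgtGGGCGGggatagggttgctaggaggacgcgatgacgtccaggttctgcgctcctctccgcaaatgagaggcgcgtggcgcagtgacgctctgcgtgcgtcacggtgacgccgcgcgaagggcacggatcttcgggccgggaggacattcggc
Slc25a5: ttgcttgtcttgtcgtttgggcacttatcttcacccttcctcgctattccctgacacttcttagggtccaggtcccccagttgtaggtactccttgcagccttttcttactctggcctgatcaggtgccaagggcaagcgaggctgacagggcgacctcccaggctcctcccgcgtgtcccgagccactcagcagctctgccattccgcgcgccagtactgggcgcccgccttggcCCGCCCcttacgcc
Slc25a11: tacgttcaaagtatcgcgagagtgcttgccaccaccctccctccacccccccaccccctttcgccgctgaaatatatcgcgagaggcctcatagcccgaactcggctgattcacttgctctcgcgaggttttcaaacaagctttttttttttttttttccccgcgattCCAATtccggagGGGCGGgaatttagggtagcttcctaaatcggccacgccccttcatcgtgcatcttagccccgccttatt
Slc25a33: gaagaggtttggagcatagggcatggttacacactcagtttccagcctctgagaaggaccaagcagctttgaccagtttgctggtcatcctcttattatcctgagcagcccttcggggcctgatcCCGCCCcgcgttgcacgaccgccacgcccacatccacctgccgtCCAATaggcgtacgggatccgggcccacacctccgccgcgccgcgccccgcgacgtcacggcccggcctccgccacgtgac
Slc25a45: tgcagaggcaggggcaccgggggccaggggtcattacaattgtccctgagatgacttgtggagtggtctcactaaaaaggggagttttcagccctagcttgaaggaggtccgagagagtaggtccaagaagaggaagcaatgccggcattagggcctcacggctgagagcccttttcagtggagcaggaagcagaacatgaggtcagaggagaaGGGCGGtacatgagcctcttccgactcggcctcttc
The shown windows lie at chr8:46211063-46211312 (minus strand) for Slc25a4, chr10:91123968-91124217 (minus strand) for Slc25a3, chrX:36795347-36795596 (plus strand) for Slc25a5, chr11:70647040-70647289 (minus strand) for Slc25a11, chr4:149774268-149774517 (minus strand) for Slc25a33 and chr19:5877572-5877821 (plus strand) for Slc25a45. Slc25a4 held 2 CCAAT matches and Slc25a5 a single GC box match, so these 2 ADP/ATP carriers differ in these letters. Slc25a3 and Slc25a45 held a single GC box match only, while Slc25a11 and Slc25a33 held 1 match of each kind. RefSeq windows were at hand for 34 of the 45 members. A CCAAT box stood in at least 1 window of 18 of the 34 (52.9%), against 40% of 10692 tested genes with a window. A GC box stood in 24 (70.6%), against 62.3%. The TATA box TATAAA was found for 2 members (5.88%, against 8.25%), Slc25a18 and Slc25a21, both of which had too few reads to test. The 34 members thus include untested ones, whereas the genes set against them were all tested. Over all 27025 genes with a window, tested or not, the shares were 37.5% for the CCAAT box, 35.4% for the GC box and 14.3% for the TATA box. The estrogen-related receptor motif TCAAGGTCA, the NRF1 motif GCGCATGCG and the ETS motif ACCGGAAGT, searched on both strands, matched 0 member windows and 0.29%, 3.25% and 1.7% of tested genes. A match gives letters only, and no binding was measured.

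Treatment with JIB-04 moved no carrier past the threshold. limma called 0 of the 40 tested members at an adjusted p under 0.05, where it called 0 of 14414 genes (0%), and the smallest adjusted p of a member was 0.748. edgeR and limma-voom also called 0 members and 0 genes. DESeq2 called 85 of 15151 genes (0.561%) and 0 members. At an unadjusted p under 0.05, limma found 3 members (6.44% of all genes), 1 higher (3.93%) and 2 lower (2.51%), and edgeR also found 3 (6.56%).

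The log2 fold changes of the members, JIB-04 minus vehicle on the log2(CPM + 1) scale, ran from -0.37 to 0.36 with a median of -0.07. The median of all tested genes was -0.01. Values were negative for 30 members and positive for 10, where 53.1% and 46.9% of all genes were negative and positive. When the libraries were rescaled to the same total, which shifted the median of all genes to 0.04, the split was 25 negative and 15 positive. All 3 JIB-04 libraries lay below both vehicle libraries for 5 members (12% of all genes) and above them for 2 members (10.7%). These were Slc25a39, Slc25a33, Slc25a37, Slc25a15 and Slc25a14 on the low side, and Slc25a30 and Slc25a45 on the high side.

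The precision differed between members. The 95% interval of the log2 fold change lay inside -0.5 to 0.5 for 31 of the 40 members, and its width to either side ran from 0.14 to 0.51. These intervals are not adjusted for the number of genes tested.

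**Figure D2:**
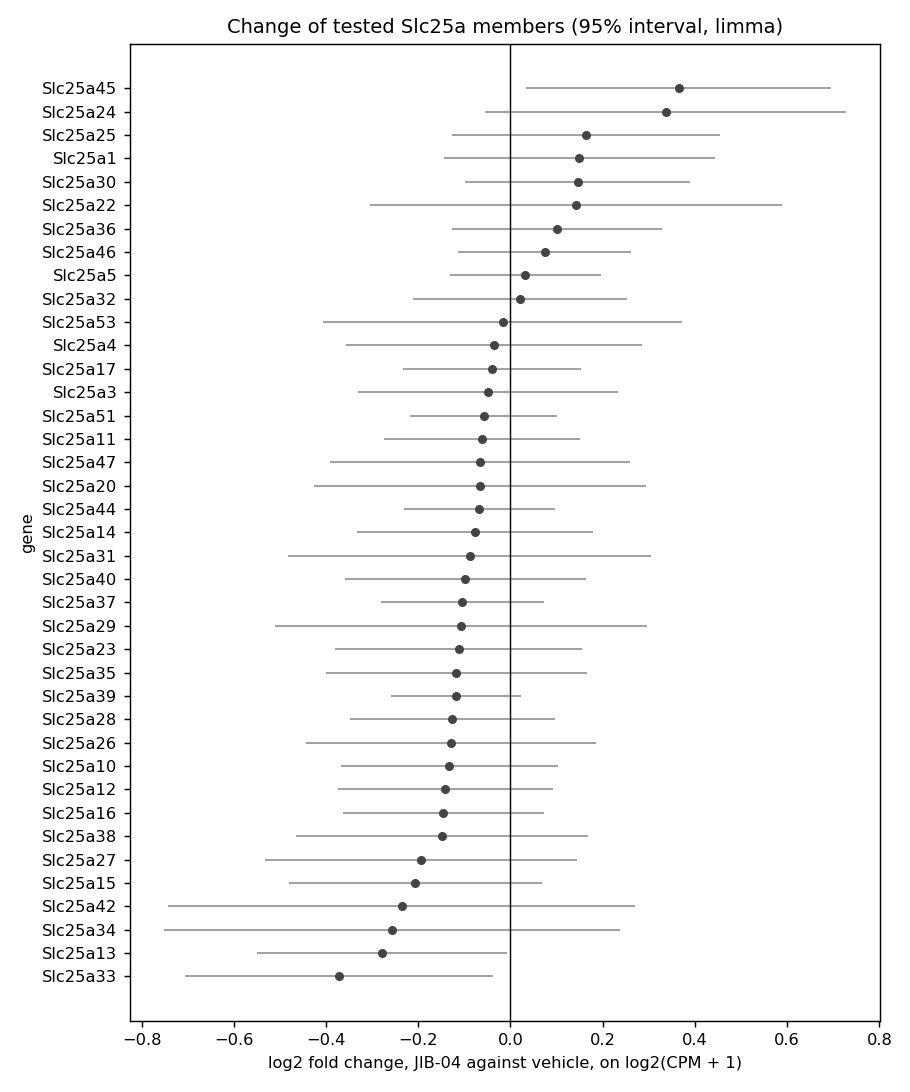
log2 fold change of 39 of the 40 tested Slc25a members between JIB-04 and vehicle, on log2(CPM + 1), with 95% intervals from limma. Points run from Slc25a33 at -0.37 to Slc25a45 at 0.36, and 3 intervals leave out 0 before adjustment over all genes.

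The carriers that serve ATP export had values near 0. Slc25a4 had a log2 fold change of -0.04 (95% interval -0.36 to 0.28), Slc25a3 one of -0.05 (-0.33 to 0.23) and Slc25a5 one of 0.03 (-0.13 to 0.20). The sign of Slc25a4 was not stable, since it was positive in 5 of 15 alternative settings. Among these 5, the fit with the replicate number as a block and the fit without JIB-04 replicate 3 gave the same value. The ratio of Slc25a4 to Slc25a5, both as CPM per kilobase, was 3.94 and 3.97 under vehicle and 4.11, 3.55 and 3.67 under JIB-04. The log2 ratio differed by -0.07 between groups (exact permutation p = 0.4, 2-sided, with 0.1 the smallest possible for 2 against 3 libraries, and adjusted p = 0.533 over 4 ratios). JIB-04 replicate 1 lay above both controls and the other treated libraries below them.

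A list of 9 genes that work beside these carriers held creatine kinases, adenylate kinases, cyclophilin D and ATP synthase subunits. All 9 had negative values (53.1% of all genes), with a median of -0.14, and 0 passed the threshold. The mitochondrial creatine kinase Ckmt2, which takes up the exported ATP, stood at 1371 and 1499 CPM under vehicle and 1390, 1186 and 1151 CPM under JIB-04, a log2 fold change of -0.21 (adjusted p = 0.821). Cyclophilin D, encoded by Ppif, had a log2 fold change of -0.15 (adjusted p = 0.821). The outer membrane channels Vdac1, Vdac2 and Vdac3, through which metabolites reach the carriers, had a median of -0.01.

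The calcium-regulated ATP-Mg/phosphate carriers, which adjust the nucleotide pool of the matrix, went in different directions. Slc25a23, the highest of them, was at 133 and 134 CPM under vehicle and 121, 109 and 143 CPM under JIB-04 (log2 fold change -0.11). Slc25a24 was at 7.95 and 6.77 CPM under vehicle and at 7.68, 11.3 and 9.97 CPM under JIB-04. Its log2 fold change was 0.34 (SE 0.16, limma adjusted p = 0.816), and JIB-04 replicate 1 lay inside the vehicle range. It was 0.48 without that library and 0.23 without either JIB-04 replicate 2 or vehicle replicate 2. Slc25a25 had 15.1 ± 0.314 CPM under vehicle and 17.1 ± 2.29 under JIB-04. The log2 ratio of Slc25a23 to Slc25a24 was 3.91 and 4.12 under vehicle and 3.82, 3.16 and 3.71 under JIB-04. Every treated library lay below both controls, by a mean of -0.45 (exact permutation p = 0.2, adjusted p = 0.533 over 4 ratios). The difference ran from -0.58 to -0.25 when each library was left out in turn, and was smallest in size without JIB-04 replicate 2.

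The 2 libraries with the most Slc25a24, JIB-04 replicates 2 and 3, also had the highest sums of macrophage and of fibroblast markers. Macrophage markers, 11 in all, summed to 361 and 260 CPM under vehicle and 361, 490 and 561 CPM under JIB-04. Of the 11, 10 had positive values (46.9% of all genes). Fibroblast markers, 7 in all, summed to 2294 and 2024 CPM under vehicle and 2322, 3112 and 2957 CPM under JIB-04. Of the 7, 6 had positive values (46.9% of all genes), but not all followed the sum. Pdgfra had a log2 fold change of -0.04 and was lowest in JIB-04 replicate 2 (46.7 CPM). Tcf21 was highest in vehicle replicate 2 (16.2 CPM). None of these markers was at 0. The part of these markers in the carrier values was not tested. In whole heart RNA a change in the number of cells of a type and a change in RNA per cell cannot be told apart.

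The malate-aspartate shuttle needs an aspartate/glutamate carrier, either Slc25a12 or Slc25a13, and Slc25a11. Slc25a13 (chromosome 6, 6041218 to 6217173) was at 116 and 140 CPM under vehicle and at 118, 101 and 97.1 CPM under JIB-04. JIB-04 replicate 1 lay just above vehicle replicate 1, so the groups overlapped by that library. The log2 fold change was -0.28 (SE 0.11, limma adjusted p = 0.767). It moved to -0.14 when vehicle replicate 2 was left out and to -0.36 when JIB-04 replicate 1 was. Slc25a12 was at 185 and 200 CPM under vehicle and 192, 156 and 176 CPM under JIB-04, a log2 fold change of -0.14. Per kilobase of exon the ratio of Slc25a12 to Slc25a13 was 0.782 and 0.7 under vehicle and 0.8, 0.759 and 0.893 under JIB-04, with overlapping groups (difference in log2 ratio 0.14, exact permutation p = 0.4, adjusted p = 0.533). Which of these genes was higher depended on the length used. Per kilobase of coding sequence, as in CPM, Slc25a12 was the higher, with a mean over all libraries of 89.6 against 56.5 for Slc25a13. Slc25a11 had a log2 fold change of -0.06 (95% interval -0.27 to 0.15). The 4 shuttle enzymes Mdh1, Mdh2, Got1 and Got2 had log2 fold changes of -0.10, -0.16, -0.11 and -0.15, and 0 of 4 passed the threshold.

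Of the remaining acid carriers, the citrate carrier Slc25a1 was at 7.31 ± 1.22 CPM under vehicle and 8.17 ± 0.435 under JIB-04. The dicarboxylate carrier Slc25a10 was at 10.9 and 12.5 CPM under vehicle and 10.5, 11 and 10.3 CPM under JIB-04. The glutamate carrier Slc25a22 was at 37 and 30 CPM under vehicle and 47.5, 30.3 and 34.7 CPM under JIB-04, where replicate 1 was the highest of all. Its log2 fold change of 0.14 turned to -0.04 without that library. The pyruvate carrier subunits Mpc1 and Mpc2, of a different protein family, had log2 fold changes of -0.08 and -0.09.

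The fatty acid path includes Slc25a20 and Slc25a42, which are given here beside Slc25a34, a member with no role assigned. Slc25a20 was at 92.4 and 112 CPM under vehicle and 116, 82.2 and 95.5 CPM under JIB-04. Slc25a42, which brings coenzyme A into the matrix (chromosome 8, 70184340 to 70212281), was at 69.6 and 77 CPM under vehicle and 81.6, 46.1 and 63.3 CPM under JIB-04. Slc25a34 was at 161 and 195 CPM under vehicle and 193, 114 and 148 CPM under JIB-04. For all 3 genes, JIB-04 replicate 2 was the lowest library. The log2 fold changes were -0.07, -0.24 and -0.26 (limma adjusted p = 0.941, 0.866 and 0.852). Leaving out JIB-04 replicate 1 moved them to -0.20, -0.43 and -0.45. Without JIB-04 replicate 2 Slc25a20 was at 0.05, Slc25a42 at -0.03 and Slc25a34 at -0.07.

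Of 5 genes of the carnitine shuttle outside the family, 4 had negative values (53.1% of all genes), 1 a positive one and 0 passed the threshold. JIB-04 replicate 2 was the lowest library for 4 of them (29.5% of all genes). The mitochondrial carnitine palmitoyltransferase gene Cpt1b was at 750 and 815 CPM under vehicle and 898, 648 and 757 CPM under JIB-04. Cpt2, which releases the acyl group in the matrix, had a log2 fold change of -0.15 (adjusted p = 0.872). Ppara, the nuclear receptor that drives fatty acid oxidation genes, was at 163 and 166 CPM under vehicle and 146, 95.3 and 145 CPM under JIB-04, so all treated libraries lay below both controls. Its log2 fold change was -0.38 (SE 0.18, limma adjusted p = 0.816). Of 9 regulators of mitochondrial genes, 8 had negative values (53.1% of all genes), with a median of -0.05, and 0 passed the threshold. Rescaling to the same total raises such values near 0. The uncoupling protein gene Ucp3, a carrier of the same superfamily under another name, was at 19.3 and 19.2 CPM under vehicle and at 34.9, 11.6 and 14.7 CPM under JIB-04, the treated libraries falling on both sides of the controls.

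The nucleotide and cofactor carriers included the member with the most negative log2 fold change. Slc25a33, which carries pyrimidine nucleotides (chromosome 4, 149744036 to 149774267), was at 25.3 and 27.8 CPM under vehicle and at 24.6, 19.1 and 17.8 CPM under JIB-04. All treated libraries lay below both controls, replicate 1 only just. The log2 fold change was -0.37 (SE 0.14, limma adjusted p = 0.748), and leaving out each library in turn or changing the test kept it between -0.51 and -0.28. Its relative Slc25a36, which also carries pyrimidine nucleotides, was at 56.4 and 62.8 CPM under vehicle and 70.9, 62.5 and 58.8 CPM under JIB-04, a log2 fold change of 0.10. The NAD carrier Slc25a51 was steady, at 82.5 ± 0.431 CPM under vehicle and 79.3 ± 4.32 under JIB-04 (95% interval -0.22 to 0.10). The S-adenosylmethionine carrier Slc25a26 and the folate and FAD carrier Slc25a32 had log2 fold changes of -0.13 and 0.02.

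Among the amino acid carriers the largest positive log2 fold change was that of Slc25a45, a member at a low level and grouped here with the carriers of basic amino acids. It was at 4.19 and 3.84 CPM under vehicle and 4.65, 6.35 and 5.48 CPM under JIB-04, so every treated library lay above both controls. The log2 fold change was 0.36 (SE 0.14, limma adjusted p = 0.748). The ornithine carrier Slc25a15 had 13.5 ± 0.31 CPM under vehicle and 11.6 ± 1.44 under JIB-04, with every treated library lower, though JIB-04 replicate 1 (13.288) was only just below vehicle replicate 1 (13.303). Slc25a44, which imports branched chain amino acids, had 39.2 ± 2.33 and 37.3 ± 0.895 CPM and an interval of -0.23 to 0.10.

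The carriers that serve heme and iron were expressed at about 20 CPM. Mitoferrin 1, encoded by Slc25a37 and best known in red cell precursors, was at 22.4 and 21.3 CPM under vehicle and at 20, 20.8 and 19.9 CPM under JIB-04. All treated libraries were lower, and the log2 fold change was -0.10. Mitoferrin 2, encoded by the broadly expressed Slc25a28, was at 18.8 and 20.7 CPM under vehicle and 18.2, 16.7 and 19.2 CPM under JIB-04 (-0.13). Per kilobase of exon Slc25a28 was 2.18 to 2.65 times Slc25a37 in the 5 libraries (difference in log2 ratio -0.02, exact permutation p = 0.9). This order depended on the length used. Per kilobase of coding sequence Slc25a37 was the higher, with a mean of 20.6 against 17.2 for Slc25a28. Slc25a38, which supplies glycine for heme synthesis, was at 21.2 ± 0.612 and 19.1 ± 3.06 CPM. The 10 red blood cell markers summed to 7103 and 4663 CPM under vehicle and to 1723, 3415 and 2505 CPM under JIB-04. All 10 had negative values (53.1% of all genes). They are not 10 separate measurements. Hba-a1 and Hba-a2 had the same value in every library, and so did Hbb-b1 and Hbb-bs. Sums and means over this list therefore count those values more than once. The part of these markers in the values of Slc25a37 and Slc25a38 was not tested.

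Slc25a39 was at 141 and 142 CPM under vehicle and 134, 126 and 130 CPM under JIB-04, lower in every treated library (log2 fold change -0.12, SE 0.06, limma adjusted p = 0.816). Its paralog Slc25a40 was about an order lower, at 15.4 ± 0.124 and 14.4 ± 1.6 CPM. Of the members resembling uncoupling proteins, Slc25a30 was at 6.23 and 6.22 CPM under vehicle and 6.66, 7.5 and 6.85 CPM under JIB-04 (0.15, every treated library higher). Slc25a27 and Slc25a14 had log2 fold changes of -0.19 and -0.08.

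**Figure D3:**
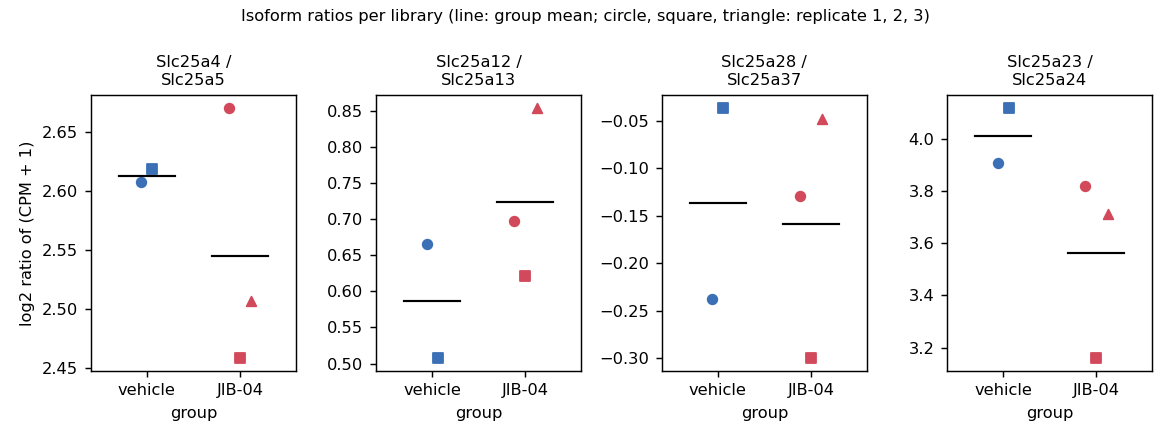
log2 ratio of 4 pairs of related carriers in each library, computed on CPM + 1, with the group mean as a line and a separate vertical scale in each panel. For Slc25a23 to Slc25a24 the treated libraries (3.16 to 3.82) lie below both controls (3.91 and 4.12), and the other 3 pairs overlap between groups.

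The treated libraries differed among themselves more than the controls did. The mean over the 40 tested members, relative to vehicle on the log2 scale, was 0.05, -0.12 and -0.09 in JIB-04 replicates 1, 2 and 3, and -0.01 and 0.01 under vehicle. JIB-04 replicate 2 was the lowest library for 18 members (29.5% of all genes) and JIB-04 replicate 1 the highest for 17 (23.2%). Without JIB-04 replicate 1 the members' median log2 fold change was -0.12, and 13 members had an unadjusted p under 0.05 (18.8% of all genes), 10 lower (9.02%) and 3 higher (9.74%). None of them passed the adjusted threshold, which 0.202% of all genes passed. The smallest adjusted p was then 0.0706, for Slc25a33. Of the others, Slc25a13, Slc25a15, Slc25a16, Slc25a34, Slc25a27, Slc25a42, Slc25a26, Slc25a12 and Slc25a39 were lower, and Slc25a24, Slc25a45 and Slc25a25 higher. JIB-04 replicate 1 was singled out by the values of these same members, so the count of 13 depends on that choice. Without JIB-04 replicate 2 instead, 0 members had a limma unadjusted p under 0.05 (774 of 14272 genes). Without JIB-04 replicate 3, 1 member did (627 of 14283 genes).

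**Figure D4:**
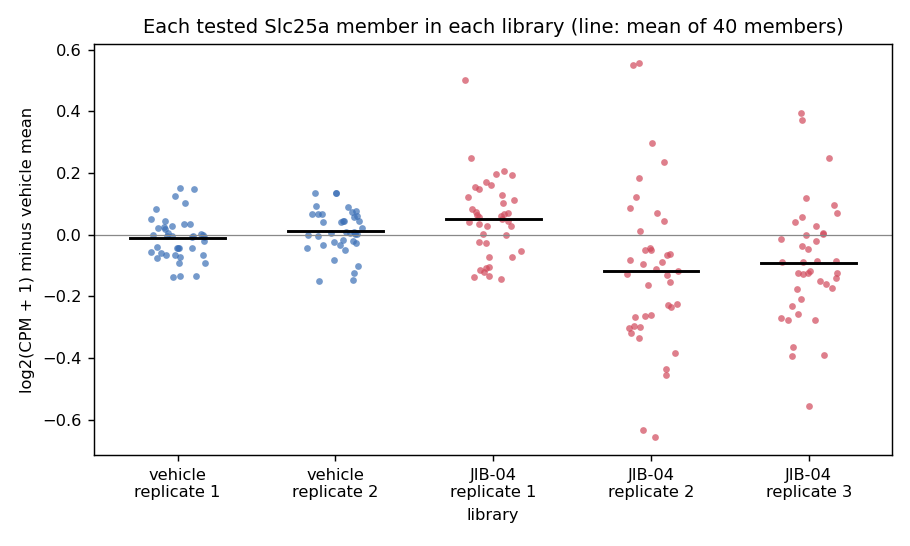
Each tested Slc25a member in each library as log2(CPM + 1) minus the vehicle mean, with the mean of the 40 members as a line; horizontal scatter within a library is for display. The mean lies at 0.05 in JIB-04 replicate 1 and at -0.12 and -0.09 in replicates 2 and 3.

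Marker lists of the cell types in the heart also differed between the treated libraries. The 10 cardiomyocyte markers lay at -0.03, -0.23 and -0.13 in JIB-04 replicates 1, 2 and 3 relative to vehicle, the macrophage markers at 0.30, 0.74 and 0.89, and the fibroblast markers at 0.09, 0.41 and 0.36. In the same order the endothelial markers lay at -0.19, 0.23 and -0.07, the smooth muscle and pericyte markers at -0.04, 0.07 and 0.09, and the red blood cell markers at -1.53, -0.59 and -1.07. In each of these lists but the cardiomyocyte markers, JIB-04 replicate 1 was the lowest of the treated libraries. It was the highest for the carriers and the cardiomyocyte markers. Vehicle replicates 1 and 2 lay at 0.19 and -0.19 for macrophage, 0.31 and -0.31 for red blood cell and 0.09 and -0.09 for smooth muscle and pericyte markers. They lay at -0.04 and 0.04 for cardiomyocyte, 0.05 and -0.05 for fibroblast and -0.02 and 0.02 for endothelial markers. The carnitine shuttle genes lay at 0.15, -0.26 and -0.03 and the malate-aspartate shuttle enzymes at -0.02, -0.24 and -0.13. Genes of carrier import, the TOM and TIM proteins that insert carriers into the inner membrane, lay at 0.05, -0.04 and -0.04, with a median log2 fold change of -0.01 over 9 genes and 0 called. Whether the share of muscle cells bears on the carrier values was not tested. Among markers of tissues outside the heart wall, the fat cell genes Adipoq, Plin1 and Elovl3 reached at most 0.114 CPM, while the fourth of that list, Cidea, lay at 26.7 to 36.6 CPM. The germ cell gene Pgk2 reached at most 0.03 CPM.

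**Figure D5:**
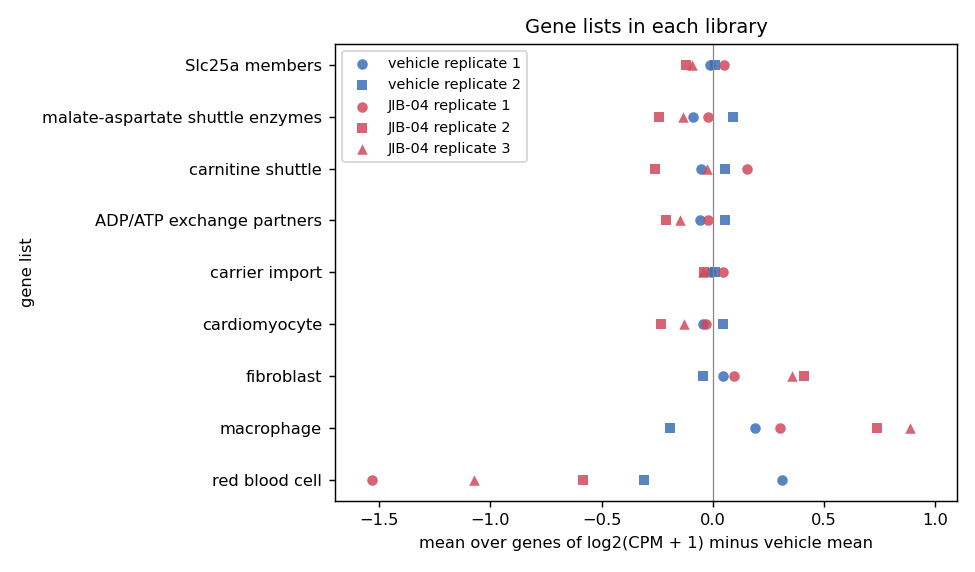
Mean over genes of log2(CPM + 1) minus the vehicle mean for the Slc25a members, 4 related pathway lists and 4 cell type marker lists, with 1 point per library. The Slc25a points span -0.12 to 0.05, while the macrophage points of JIB-04 reach 0.89 and the red blood cell points -1.53.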

How the data were processed

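Each of 5 deposited files gives a single CPM column for 1 library. The submitters' processing notes list edgeR, featureCounts, Subread, Picard 1.127, TopHat2 2.0.12 and FastQC 0.11.2, as well as build mm10, with no role stated. Per the labels' protocols, RNA was extracted with Trizol and made into stranded mRNA libraries. The deposited columns summed to 954981 to 1046902, so the values were treated as a normalised signal from the authors. Divided by the worth of a single read in their library, all values (100%) fell within 0.01 of a whole number, which gave back whole reads. The files' starts count from 0, since 9451 of them plus 1 met a GENCODE transcript start and 966 did unshifted, so 1 was added to each. A single blank row was left out.

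Genes were kept with edgeR's filterByExpr (minimum of 10 reads, 15 in total), leaving 14414. The test was limma 3.58.1 in R 4.3.3, with a trend, on log2(CPM + 1), Benjamini-Hochberg adjusted over all genes at 0.05, with 3 residual degrees of freedom. A log2 fold change on this scale understates changes of genes at low CPM. edgeR 4.0.16 quasi-likelihood, limma-voom and DESeq2 1.42.0 on the recovered reads were alternatives, as were pseudocounts of 0.5 and 0.1, other filters, rescaling, a replicate block and leaving out each library. All 4 tools were tested on simulated data with known changes. Exon lengths are unions over GENCODE vM21 basic transcripts, matched for all 45 members. Promoters are from RefSeq. Members named with values were the 10 highest per kilobase, the 5 with the smallest p in each direction and 28 fixed by name. Further members are named to account for the family, and a single member's own values are not reported here. The members and gene lists were chosen with earlier results of these data known. Floors of single values cover counting error only. The intervals of the log2 fold changes come from limma and rest on the spread between libraries.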

Additional observations from a re-analysis of the deposited data

How the results depend on the processing

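The count of called members was 0 in all 16 fits, and the members' median log2 fold change stayed negative in each. It was -0.07 as reported, ran from -0.12 to -0.03 when each library was left out in turn, and was -0.03 with libraries rescaled to the same total. Called genes numbered 0 as reported, 85 with DESeq2, and 0 to 29 with a library left out, the 29 arising without JIB-04 replicate 1. In fits that leave 1 vehicle library, that library is assumed to vary like the treated ones. With the replicate number as a block, where JIB-04 replicate 3 has no partner and so adds nothing, 0 genes and 0 members were called and the median was -0.058. Same-numbered libraries did not deviate together (r = -0.13 for both pairs, across genes). The 2 vehicle libraries deviate from their mean as mirror images, so these values are not independent. The check therefore cannot decide whether the numbers pair the samples.

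Signs of some values near 0 changed, and the cause was not tested. After rescaling Slc25a4 was at 0.017 and Slc25a3 at 0.0038, and with the block Slc25a4 was at 0.0090. With a library left out the log2 fold changes ran from -0.118 to 0.0090 for Slc25a4, -0.147 to 0.0030 for Slc25a3, -0.0078 to 0.0715 for Slc25a5, -0.128 to 0.0058 for Slc25a11, -0.202 to 0.0697 for Slc25a20, -0.00083 to 0.299 for Slc25a1 and -0.0368 to 0.290 for Slc25a22. In all, 421 of 435 values of single members kept their direction and their side of the threshold. These are not 435 separate checks. Changing the filter left the limma log2 fold changes as they were. The block gave the same log2 fold changes as leaving out JIB-04 replicate 3. The difference in log2 ratio of Slc25a28 to Slc25a37 ran from -0.123 to 0.0785 with a library left out, and the other 3 ratios kept their sign. The share of the summed level held by Slc25a4 was 41.6% per kilobase of exon, 39.2% without division by length and 43.4% per kilobase of coding sequence, the last chosen after the data were seen. The alternative with RefSeq protein lengths was not run.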
